A study of Mus musculus with 6 samples.

Results

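The genes described here encode core parts of the PI3K and mTOR signalling pathway, namely Tsc1, Tsc2, Rheb, Mtor, Rptor, Rictor, Eif4ebp1, Akt1 and Pik3r1. A gene was measured through a probe set that the platform annotation gave to that gene symbol alone, and the probe set with the highest mean over all arrays was used. By this rule 9 of the 10 listed genes were measured, out of 19938 genes in all (0.0451%), each through 1 such probe set. Rps6kb1, which encodes S6 kinase 1, is not analysed here. The samples were cultured neural stem cells from brains of female C57BL/6 embryos (mouse, wild type) of embryonic day 17.5. They came from the subventricular zone, in one group along the lateral ventricle and in the other along the third ventricle, with 3 Affymetrix arrays each. All cultures had grown in low-attachment dishes in N2 and B27 medium with FGF and EGF at 20 ng/ml each. Both groups were thus measured after culture under these growth factors, and not in the tissue.

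In this pathway, receptor tyrosine kinases recruit PI3K, whose lipid product brings the kinase AKT to the membrane. AKT inhibits the TSC complex, which otherwise keeps the GTPase RHEB inactive, and active RHEB switches on mTOR complex 1 at the lysosome when amino acids are present. That complex drives protein synthesis, in part by releasing translation factor eIF4E from the repressor 4E-BP1, while mTOR complex 2 phosphorylates AKT. In neural stem cells the pathway is known for its part in growth, proliferation and the balance between self-renewal and differentiation. Much of its control lies in phosphorylation, which transcript levels do not show.

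RefSeq promoter windows (assembly GRCm38.p6), each with 250 bases before and 50 after a transcript start, were at hand for 9 of the 10 listed genes, in 11 windows. Eif4ebp1 has none here. The upstream stretches of Rictor and Pik3r1 are printed, up to the outermost start of the gene, because the arrays of the regions did not overlap in these genes and stood in opposite order. The Rictor stretch, on the plus strand at chr15:6708131-6708348, has 218 bases and 83.0% G and C, and the Pik3r1 stretch, on the minus strand at chr13:101768218-101768467, has 250 bases and 76.4% G and C.
Rictor: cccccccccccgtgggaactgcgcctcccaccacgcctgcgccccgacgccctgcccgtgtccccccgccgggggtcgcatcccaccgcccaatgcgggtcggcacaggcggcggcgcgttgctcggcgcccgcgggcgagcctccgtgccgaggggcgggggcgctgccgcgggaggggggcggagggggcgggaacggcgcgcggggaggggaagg
Pik3r1: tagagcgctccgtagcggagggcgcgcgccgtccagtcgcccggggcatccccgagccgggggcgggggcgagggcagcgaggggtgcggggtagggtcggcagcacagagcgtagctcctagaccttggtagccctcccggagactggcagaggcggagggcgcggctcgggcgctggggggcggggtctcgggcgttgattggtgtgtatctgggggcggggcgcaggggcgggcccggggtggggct

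The windows were searched on both strands for the E-box CACGTG, the composite C/EBP-ATF element TGATGNAA, the forkhead element GTAAACA and the YY1 core ATGGCGG, the last of them picked after the sequences had been read. No match overlapped another motif. Matches stood in 4 members, shown in 30 bases each with the match in capitals, to place them beside the values of these genes.
Tsc1, YY1 core, plus strand, chr2:28641246-28641275: gcgcgtccaagATGGCGGcgccctgtaggc
Rictor, YY1 core, plus strand, chr15:6708392-6708421: aacccgtcaatATGGCGGcgatcggccgcg
Rheb, E-box, minus strand, chr5:24842440-24842469: gccgcgcgcggtCACGTGggtgtgttgttg
Akt1, forkhead element read in reverse, minus strand, chr12:112675027-112675056: atctaccctctTGTTTACactcctggtgaa
Tsc1 and Rictor, whose values are given next, held ATGGCGG at bases 25 and 23 after the start. Of 32851 windows in the whole table, 4.05% held this core, 7.15% the E-box, 3.65% the forkhead element and 3.97% the C/EBP-ATF element, which none of the 11 windows held. A match is a run of letters and not a shown binding site.

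None of the 9 genes passed the test for a difference between the regions. The test was limma over all 19938 genes, with Benjamini-Hochberg adjustment and a threshold of 0.05, and 0.231% of all genes passed it (0.145% as higher and 0.0853% as lower in the third ventricle cultures). The lowest adjusted p among the members was 0.299, for Rictor. At an unadjusted p below 0.05 there were 3 of the 9, Tsc1 and Rictor as lower and Pik3r1 as higher, where 12.6% of all genes reached this level. In the same 3 genes the arrays of the regions did not overlap, against 17.0% of all genes (9.24% with the third ventricle arrays below and 7.77% with them above). The median log2 difference, the third minus the lateral ventricle, was -0.07 over the members and -0.02 over all genes, and 6 of the 9 were negative against 54.6% of all genes. Differences and levels are on the log2 scale of the deposited values throughout.

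The calls depended on lateral ventricle array 2. Over all genes it correlated at 0.991 with each array of the other region, and at 0.980 and 0.982 with lateral arrays 1 and 3. Without it, 8.25% of all genes passed (4.37% higher and 3.88% lower in the third ventricle), and so did 4 of the 9 members. These were Tsc1, Rictor and Eif4ebp1 as lower and Pik3r1 as higher. In all 4 the left-out array lay nearer the mean of the third ventricle arrays than that of the other lateral arrays, as it did in all but 18.3% of the 1644 genes passing in that fit. That fit therefore describes lateral arrays 1 and 3 and not all lateral cultures. All 9 members lay above a gauge of background, the 95th percentile of 1027 olfactory receptor genes (5.03 to 5.16), in 6 of 6 arrays. So did 11020 of all 19938 genes, while 6860 lay above it in no array. As RNA of whole cultures was measured, fewer cells of a type and less RNA per cell cannot be told apart.

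**Figure D1:**
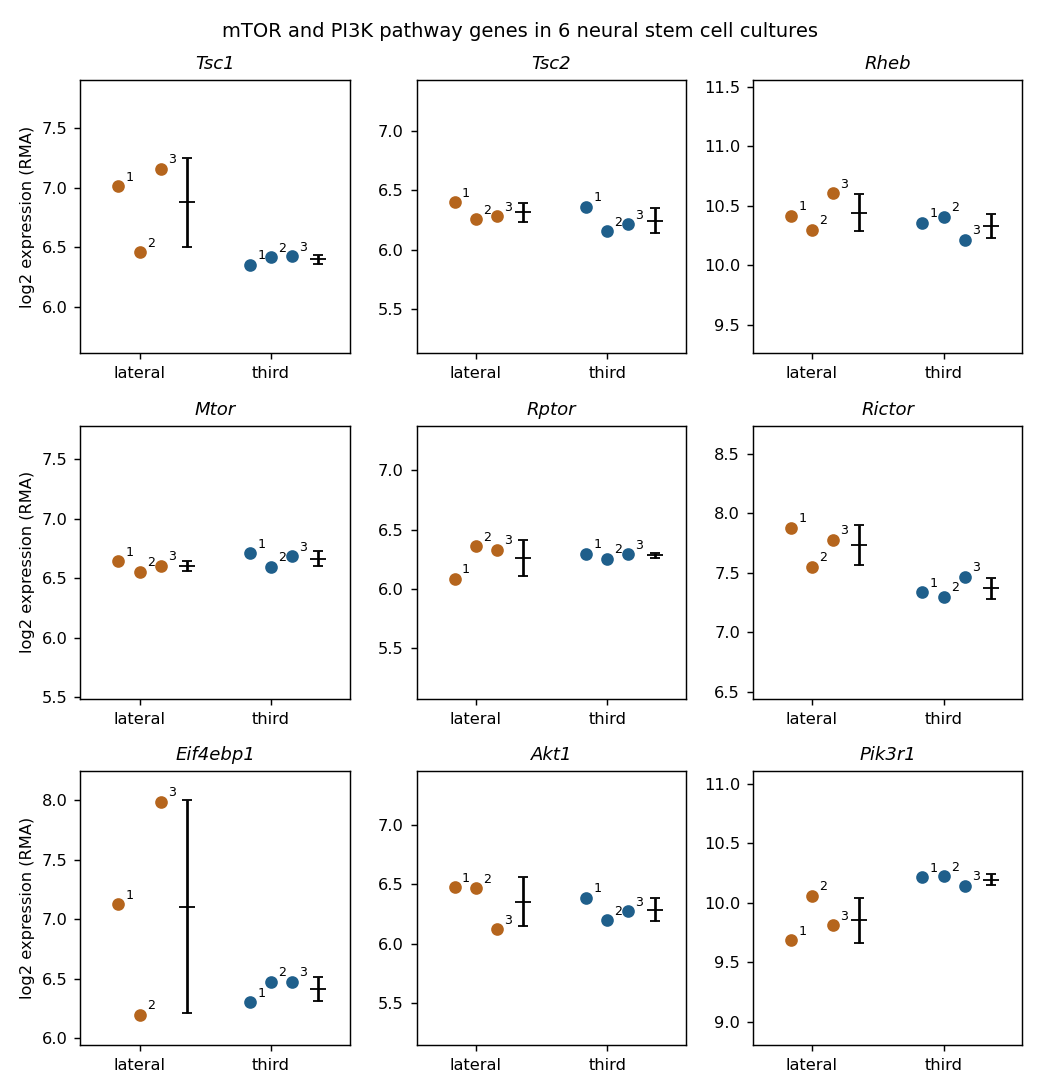
Log2 expression (RMA) of the 9 measured members in each array, by region; digits are replicate numbers, bars show mean ± SD over 3 arrays, and each panel spans the same height on its own log2 range. Tsc1, Rictor and Pik3r1 have separate groups, and Eif4ebp1 spreads from 6.20 to 7.99 within the lateral arrays.

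Of the inhibitory TSC complex, Tsc1 had lower values in the third ventricle cultures without passing, and Tsc2 overlapped between the groups. Tsc1 (probe set 10470584) encodes hamartin, which stabilises the complex. Its log2 values were 7.01, 6.46 and 7.16 in lateral arrays 1, 2 and 3, against 6.36, 6.42 and 6.43 for the third ventricle. Lateral arrays 1 and 3 were high, and array 2 lay just above the highest value of the third ventricle. The means were 6.88 ± 0.37 and 6.40 ± 0.04 (SD, n = 3), a difference of -0.48 (95% interval -0.88 to -0.08) or 1.39-fold lower, with a limma adjusted p of 0.346. Without lateral array 2 the difference was -0.69 (-0.92 to -0.46, adjusted p = 0.00470), and from that array alone, which has no lateral replicate, the third ventricle mean differed by -0.06. Tsc2 (probe set 10448631) encodes tuberin, the subunit that acts on RHEB. It read 6.40, 6.26 and 6.28 in lateral arrays 1, 2 and 3, against 6.36, 6.16 and 6.22 for the third ventricle, and lateral array 1 was the highest. Its difference was -0.07 (95% interval -0.29 to 0.16, adjusted p = 0.821). Whether Tsc1 and Tsc2 differ from each other in their change was not tested.

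Rheb (probe set 10528691), the small GTPase under TSC control, overlapped between the groups. The lateral arrays read 10.42, 10.30 and 10.60, against 10.36, 10.41 and 10.21 for the third ventricle. The highest value was that of lateral array 3 and the lowest that of array 3 of the third ventricle. The difference was -0.11 (95% interval -0.37 to 0.14, limma adjusted p = 0.727).

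Of the mTOR complexes, the kinase and the complex 1 scaffold overlapped between the regions, while the complex 2 scaffold lay lower in the third ventricle cultures without passing. Mtor (probe set 10510305) encodes the kinase of both complexes. Its values were 6.65, 6.56 and 6.61 in lateral arrays 1, 2 and 3, against 6.71, 6.60 and 6.69 for the third ventricle, a difference of 0.06 (95% interval -0.14 to 0.27, adjusted p = 0.818). Rptor (probe set 10383245) encodes raptor, which presents substrates to complex 1, and read 6.09, 6.36 and 6.33 against 6.30, 6.25 and 6.29. Lateral array 1 was the lowest, the other 5 arrays lay between 6.25 and 6.36, and the difference was 0.02 (-0.21 to 0.26, adjusted p = 0.953). It turned to -0.06 without lateral array 1.

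Rictor (probe set 10422781) encodes the scaffold of complex 2, which acts on AKT. Its values were 7.88, 7.55 and 7.78 in lateral arrays 1, 2 and 3, against 7.34, 7.30 and 7.47 for the third ventricle. Each lateral value exceeded each value of the third ventricle, with array 2 the lowest of the lateral ones. The means were 7.73 ± 0.17 and 7.37 ± 0.09 (SD, n = 3), a difference of -0.37 (95% interval -0.63 to -0.11) or 1.29-fold lower, with a limma adjusted p of 0.299. Without lateral array 2 it was -0.46 (adjusted p = 0.0315), and from that array alone -0.18. The difference of Rictor from that of Rptor was not tested.

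The widest spread was that of Eif4ebp1 (probe set 10571162), which encodes the translation repressor 4E-BP1. The lateral arrays read 7.13, 6.20 and 7.99, against 6.30, 6.47 and 6.48 for the third ventricle. Lateral array 3 was the highest of all 6 and lateral array 2 the lowest, so the groups overlapped. The means were 7.11 ± 0.90 and 6.42 ± 0.10 (SD, n = 3), a difference of -0.69 (95% interval -1.56 to 0.18, limma adjusted p = 0.495). Without lateral array 2 the difference was -1.14 (-1.65 to -0.63, adjusted p = 0.0178), 2.21-fold lower, while from that array alone it was 0.22 in the other direction. The lateral SD exceeded the third ventricle SD in 7 of the 9 members, as it did in 66.8% of all genes.

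On the PI3K side, Pik3r1 had higher values in the third ventricle cultures without passing, and Akt1 overlapped. Pik3r1 (probe set 10411782) encodes p85 alpha, the regulatory subunit that docks PI3K to phosphorylated receptors. Its values were 9.69, 10.06 and 9.81 in lateral arrays 1, 2 and 3, against 10.22, 10.23 and 10.14 for the third ventricle. The third ventricle arrays all lay above the lateral ones, of which array 2 came nearest. The means were 9.85 ± 0.19 and 10.20 ± 0.04 (SD, n = 3), a difference of 0.34 (95% interval 0.08 to 0.61) or 1.27-fold higher, with a limma adjusted p of 0.327. Without lateral array 2 it was 0.45 (0.22 to 0.67, adjusted p = 0.0299), and from that array alone 0.13. Akt1 (probe set 10402766), a kinase downstream of PI3K, read 6.48, 6.47 and 6.12 against 6.39, 6.20 and 6.27, with lateral array 3 the lowest. Its difference was -0.07 (95% interval -0.35 to 0.21, adjusted p = 0.859).

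**Figure D2:**
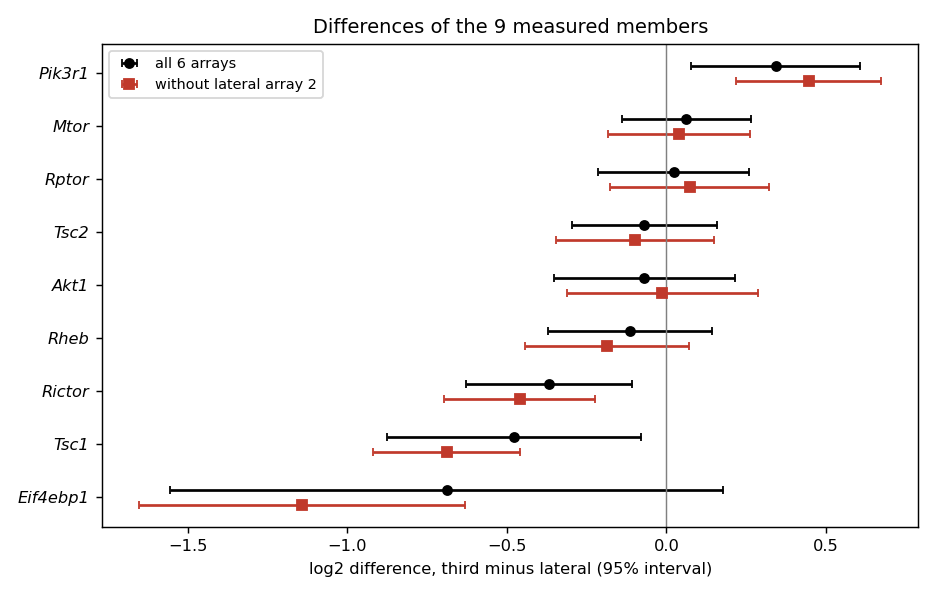
Log2 difference of each member, the third minus the lateral ventricle mean, with its 95% interval from limma over all 6 arrays (black circles) and without lateral array 2 (red squares). The intervals of Tsc1, Rictor and Pik3r1 leave out 0 in both fits before adjustment, and that of Eif4ebp1 only without array 2.

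The genes whose 6 values ran most like those of Pik3r1 and Eif4ebp1, the members with the largest positive and negative difference, were sought among 13069 genes above the gauge in at least 1 array. Likeness was the root mean square difference of the values after each gene was centred on its own mean. Nearest to Pik3r1 were the nuclear import receptor Kpnb1 (0.0209), Atp5g3, a subunit of ATP synthase (0.0276), Pgp (0.0306), Aida (0.0308) and Fkbp3 (0.0312). Pik3r1 itself varied by 0.205 around its mean on this measure. Nearest to Eif4ebp1, which varied by 0.624, were Rhbdd1 (0.0797), Fibin (0.0935), the transporter Abcc4 (0.0973), the glutamine transporter Slc1a5 (0.105) and Ppp1r15a, a regulatory subunit of protein phosphatase 1 (0.132). Fibin lay above the gauge in lateral array 3 alone (5.97), and so entered the search through the array where it is high. These are descriptions over 6 arrays that share the position of lateral array 2.

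Targets of ATF4 and cell cycle genes also set lateral array 2 apart from lateral arrays 1 and 3. Of 15 targets of ATF4, the transcription factor of amino acid stress, all had a negative difference, with a median of -0.72. None passed in limma over 6 arrays, and 7 had an unadjusted p below 0.05, against 12.6% of all genes. Relative to each gene's mean, their median was 0.46, -0.52 and 1.18 in lateral arrays 1, 2 and 3, against -0.28, -0.47 and -0.40 for the third ventricle. The order of the lateral arrays was thus the same as for Eif4ebp1 and Tsc1, with array 3 highest and array 2 lowest, while in Rictor array 1 was the highest. Nupr1, a stress-induced nuclear protein, differed by -2.19 (adjusted p = 0.366) and the cystine transporter Slc7a11 by -1.62 (adjusted p = 0.518). Without lateral array 2, 11 of the 15 ATF4 targets passed as lower, against 3.88% of all genes. Of 27 cell cycle genes all were positive, with a median of 1.12. Their centred medians were -1.36, 0.55 and -0.88 in lateral arrays 1, 2 and 3, against 0.56, 0.54 and 0.58 for the third ventricle. None passed in limma over 6 arrays, and 23 had an unadjusted p below 0.05, against 12.6% of all genes. Without lateral array 2 all 27 passed as higher, against 4.37% of all genes. The mitotic kinases Bub1 and Plk1 differed by 1.39 (adjusted p = 0.338) and 1.32 (adjusted p = 0.297). Of 14 targets of FOXO factors, which AKT inhibits, none passed in limma, 6 were positive and the median was -0.09. An unadjusted p below 0.05 was reached by 1 of them, against 12.6% of all genes. Gadd45a (-1.12, adjusted p = 0.395) and Ccnd1 (0.86, adjusted p = 0.429) had the largest differences. The list pools genes that FOXO factors induce with genes they repress, such as Ccnd1, so its signs do not read FOXO activity. Irs2, Sesn1 and Insr of this list also belong to the wider pathway list below. The centred medians of the FOXO targets were 0.19, -0.06 and -0.02 in lateral arrays 1, 2 and 3. For the third ventricle they were 0.05, -0.10 and -0.02. As the list pools opposite signs, these medians cannot show where lateral array 2 stands. Gene by gene, that array lay nearer lateral arrays 1 and 3 in 2 of the 14, against 8218 of all 19938 genes. Of the 14, 2 passed without lateral array 2, Trib1 as higher and Gadd45a as lower, against 8.25% of all genes. The part of these groups in the members' differences was not tested.

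**Figure D3:**
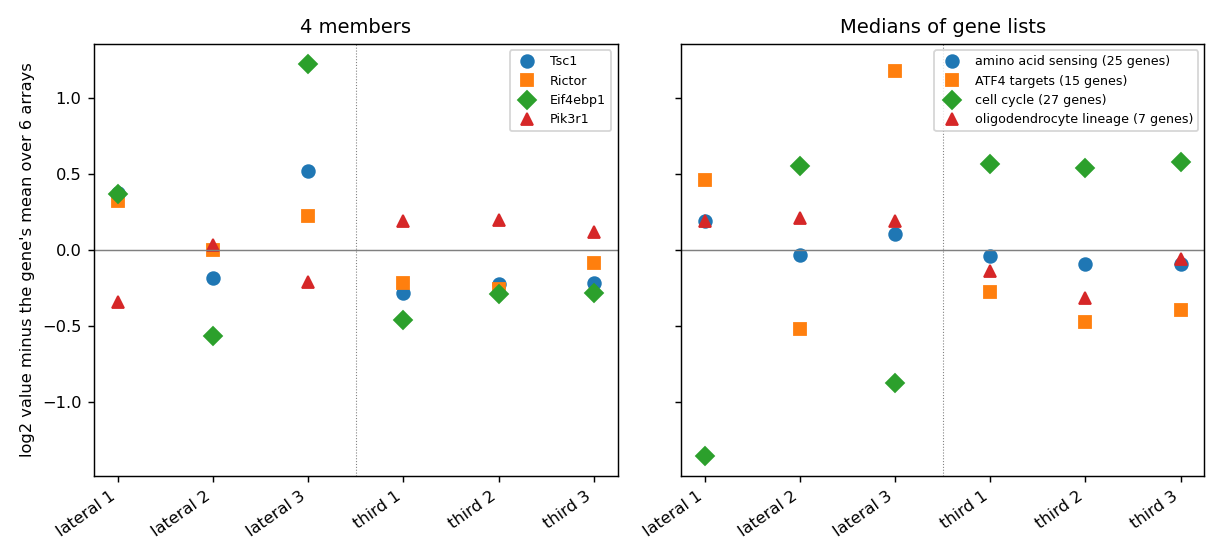
Log2 value minus the mean over 6 arrays, for 4 members (left) and as medians of 4 gene lists (right), in each of the 6 arrays. Lateral array 2 lies near the third ventricle arrays in cell cycle genes (0.55) and ATF4 targets (-0.52). In oligodendrocyte lineage genes its median (0.21) lies with the other lateral arrays, although only 4 of the 7 genes have it nearer those arrays.

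The cultures carried the markers of neural stem cells. Of 12 such markers 11 lay above the gauge in all 6 arrays, Nes, Sox2, Vim and Fabp7 among them, against 11020 of all 19938 genes. None passed between the regions in limma, and 1 had an unadjusted p below 0.05, against 12.6% of all genes. Of 7 oligodendrocyte lineage markers 6 lay above the gauge in all arrays, and Pdgfra passed as lower in the third ventricle cultures (-1.79, limma adjusted p = 0.00707). Of the 7, 6 were negative, from -1.79 for Pdgfra to -0.09 for Cspg4, and Olig1 was positive at 0.17 (limma adjusted p = 0.744). An unadjusted p below 0.05 was reached by 3, all as lower, against 12.6% of all genes. Beside Pdgfra these were Gpr17 (-1.35, limma adjusted p = 0.133) and Sox10 (-0.74, adjusted p = 0.118). The mean log2 level of this list was 6.75 to 6.92 in the lateral and 6.16 to 6.30 in the third ventricle arrays. The neuronal list stood at 6.79 to 6.90 and 6.58 to 6.67, with 7 of 10 above the gauge in all arrays and Stmn2 and Syt1 in none. Of its 10 genes, 7 were negative and 3 positive, from -1.63 for Dcx (adjusted p = 0.136) to 0.60 for Gap43 (adjusted p = 0.421). An unadjusted p below 0.05 in limma was reached by 4, all as lower and Stmn2 among them, against 12.6% of all genes. The astrocyte list stood at 6.46 to 7.04 and 6.59 to 6.71, with 6 of 8 above the gauge in all arrays and Gfap and Gjb6 in none. Of these 8, 3 were positive and 5 negative, from -0.59 for Aqp4 (limma adjusted p = 0.537) to 0.94 for Sparcl1 (adjusted p = 0.202). In 0 of 7 microglial, 2 of 8 endothelial, 3 of 8 meningeal, 4 of 8 ependymal, 2 of 7 choroid plexus and 1 of 5 erythroid markers did all arrays lie above the gauge. Pecam1, Cdh5, Csf1r, P2ry12, Dcn and Ttr lay above it in none. The part of the neuronal, astrocyte and oligodendrocyte lineage genes in the members' differences was not tested.

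The wider pathway held no passing gene over 6 arrays either. A further 99 genes, sorted by role, were measured. Of the 99, 0 passed in limma, against 0.231% of all genes. At an unadjusted p below 0.05 there were 22 (6 higher and 16 lower), against 12.6% of all genes, and in 24 the groups did not overlap, against 17.0%. The median difference was -0.07 (-0.02 over all genes), and 60 were negative, against 54.6% of all genes. Without lateral array 2, 15 of the 99 passed, 5 higher and 10 lower, against 8.25% of all genes (4.37% higher and 3.88% lower). In 4 of those 15 the left-out array lay nearer the other lateral arrays, against 18.3% of all genes passing in that fit. Of the 99, 82 lay above the gauge in all arrays and 10 in none, against 11020 and 6860 of all 19938 genes.

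**Figure D4:**
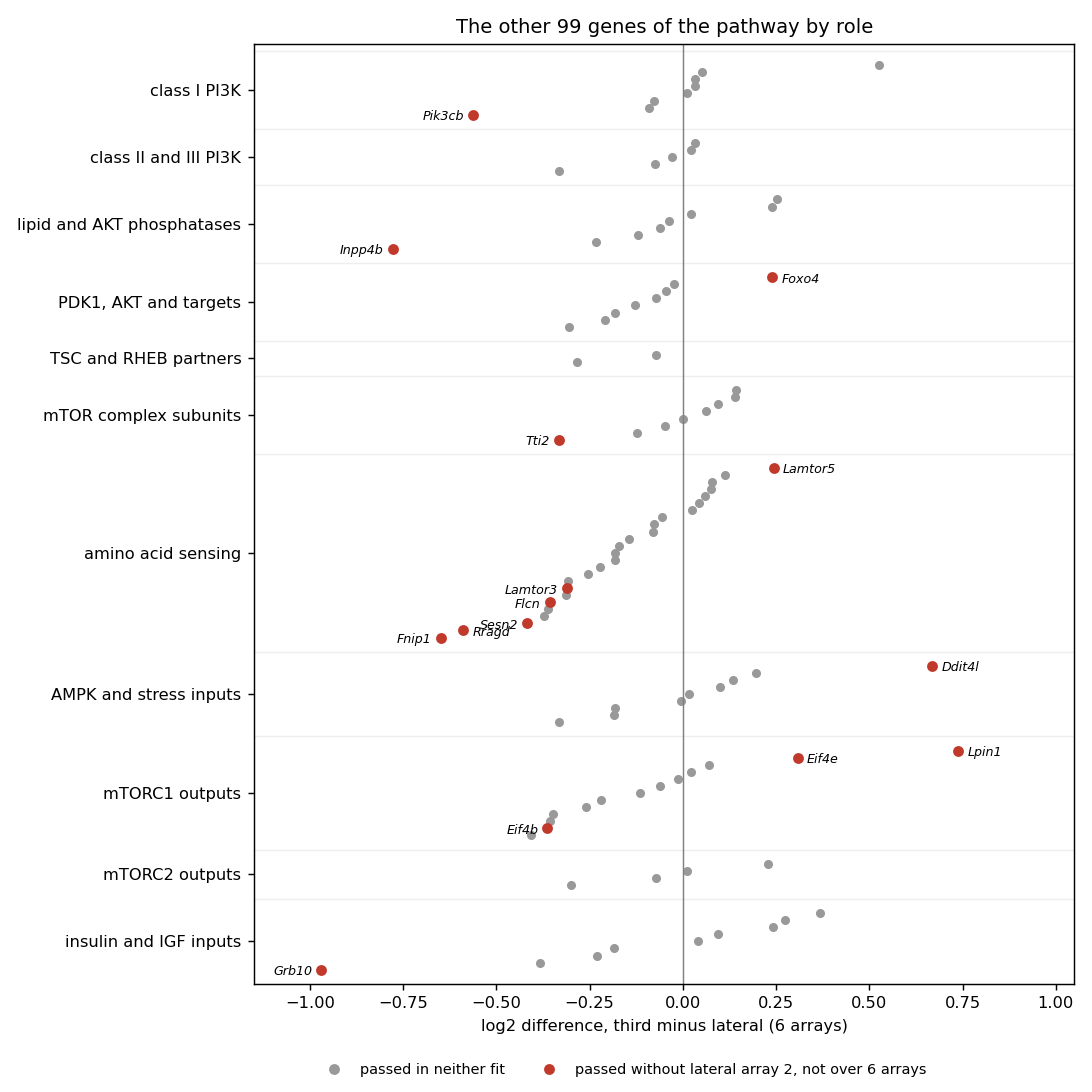
Log2 difference over 6 arrays, the third minus the lateral ventricle mean, of the other 99 measured pathway genes, in rows by role. Red points with names are the 15 genes that passed without lateral array 2 and not over 6 arrays; Grb10 (-0.97) and Lpin1 (0.74) lie farthest out.

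Of the 15 genes passing without lateral array 2, the 4 with that array on the lateral side were Pik3cb, Lpin1, Grb10 and Inpp4b. They were picked by this position, so where array 2 lies in them is set by the choice. Pik3cb encodes a catalytic subunit of class I PI3K. It read 7.03, 7.16 and 7.11 in lateral arrays 1, 2 and 3, against 6.61, 6.50 and 6.50 for the third ventricle, a difference of -0.56 (95% interval -0.77 to -0.35, limma adjusted p = 0.0756). Array 2 was its highest lateral value, and from that array alone the difference was -0.63. Lpin1 encodes lipin 1, a phosphatidate phosphatase that mTOR complex 1 phosphorylates. It read 6.71, 6.63 and 7.05 against 7.53, 7.53 and 7.56, a difference of 0.74 (0.46 to 1.02, adjusted p = 0.0790). The arrays of the third ventricle were all high, and lateral array 2 was the lowest of 6. Grb10, an adaptor that binds the insulin receptor and is phosphorylated by mTOR complex 1, read 7.66, 7.42 and 8.14 against 6.61, 6.80 and 6.90, a difference of -0.97 (-1.39 to -0.55, adjusted p = 0.109). Inpp4b, a lipid phosphatase that opposes PI3K signalling, read 6.17, 6.12 and 6.82 against 5.58, 5.68 and 5.52, a difference of -0.78 (-1.20 to -0.36, adjusted p = 0.206). With array weights, which let limma count arrays that stand apart less, 3 of the 99 passed, Pik3cb (adjusted p = 0.0396), Lpin1 (0.0403) and Grb10 (0.0326). Over all 19938 genes the passing count rose as well, from 46 to 158. Lpin1 also passed without lateral array 3 (adjusted p = 0.0496), a fit in which 20 of all genes passed.

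**Figure D5:**
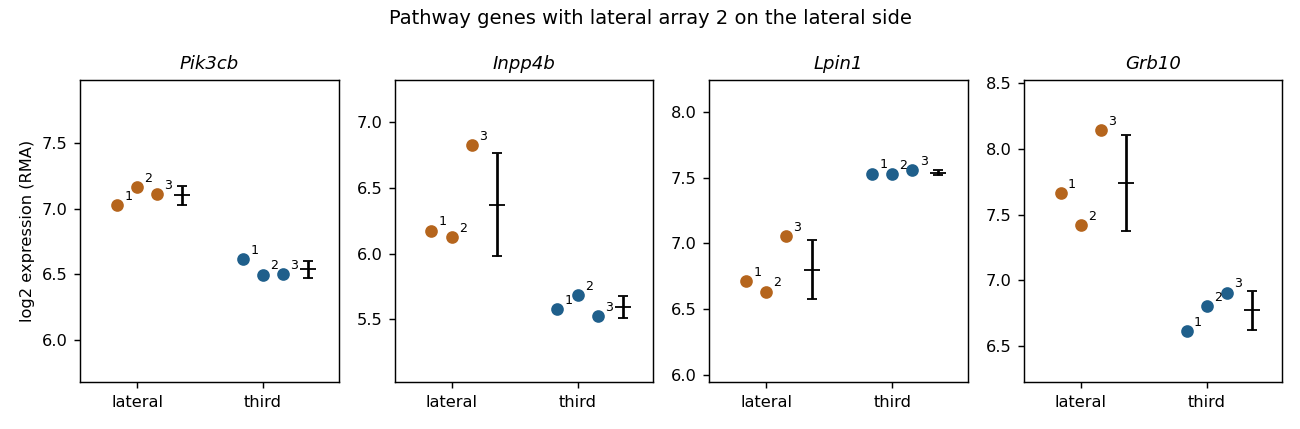
Log2 expression (RMA) of Pik3cb, Inpp4b, Lpin1 and Grb10 in each array by region, with replicate numbers and mean ± SD over 3 arrays. The genes were picked because lateral array 2 lay nearer the other lateral arrays, at 7.16 for Pik3cb and 6.63 for Lpin1.

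Amino acid sensing genes, which control the recruitment of mTOR complex 1 to the lysosome by RAG GTPases, held no passing gene over 6 arrays. The list pools genes that promote this step with genes that restrain it, so its counts and median do not read the activity of the complex. Of 25 measured, 18 were negative, against 54.6% of all genes, 5 had an unadjusted p below 0.05 in limma, against 12.6%, and the median was -0.18. Their centred medians were 0.19, -0.03 and 0.11 in lateral arrays 1, 2 and 3, against -0.04, -0.09 and -0.09 for the third ventricle. Fnip1, the partner of folliculin, differed by -0.65 (adjusted p = 0.301), and the RAG GTPase Rragd by -0.59 (adjusted p = 0.454). Rragd read 7.71, 6.49 and 7.62 in lateral arrays 1, 2 and 3, against 6.88, 6.54 and 6.63 for the third ventricle, with array 2 the lowest of all. Without lateral array 2 both passed, at -0.86 for Fnip1 (adjusted p = 0.0105) and -0.98 for Rragd (adjusted p = 0.00247). So did Flcn, which encodes folliculin, the leucine sensor Sesn2 and the lysosomal adaptor Lamtor3 as lower and Lamtor5 as higher, 4 genes named after their values were seen. In all, 6 of the 25 passed in that fit, 5 lower and 1 higher, against 8.25% of all genes (3.88% lower and 4.37% higher). The left-out array lay nearer the other lateral arrays in 0 of these 6, against 18.3% of all genes passing in that fit.

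No gene of the other roles passed over 6 arrays. Among class I PI3K genes, 5 of 8 were positive and the regulatory subunit Pik3r3 differed by 0.53 (adjusted p = 0.347), with separate groups. Among class II and III genes, Pik3c3 and Pik3c2a differed by -0.33 and -0.07. The AKT phosphatase Phlpp1 differed by 0.25. In the AKT arm 7 of 8 were negative, with Foxo3 at -0.30 (adjusted p = 0.356) and Foxo4 at 0.24. Foxo4 lay above the gauge in 4 of 6 arrays, and below it in lateral arrays 1 and 3. Of the TSC and RHEB partners, Rhebl1 differed by -0.28 but lay below the gauge in all arrays, and Tbc1d7 by -0.07. Among 8 further mTOR complex subunits and assembly factors the median was 0.03, and Tti2, part of the complex that matures mTOR kinase, differed by -0.33 (adjusted p = 0.320). Prr5l, of complex 2, differed by 0.14 and lay below the gauge in all arrays. Ddit4l, an inhibitor of mTOR complex 1, differed by 0.67 (95% interval 0.22 to 1.12, adjusted p = 0.287) and Ddit4, its stress-induced relative, by -0.33 (adjusted p = 0.610). Of 13 outputs of mTOR complex 1, 9 were negative, and after Lpin1 the autophagy kinase Ulk2 had the largest difference, -0.41 (adjusted p = 0.347). Of the outputs of complex 2, Sgk1 differed by -0.30 and Prkca by 0.23. Among insulin and IGF inputs, 5 of 9 were positive, and after Grb10 the insulin receptor Insr differed by -0.38 (adjusted p = 0.396).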

How the data were processed

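The authors deposited RMA values on a log2 scale, 1 per probe set and array. Per the submitters' processing notes, RMA was run in version 1.1 of Affymetrix Expression Console. Its settings and the genome build were not given in the sources used here. Per the labels' protocols, cDNA was amplified from small amounts of total RNA, which can add spread between arrays, and RMA compresses differences of dim probe sets. From 35556 probe sets, 21789 had 1 gene symbol, which left 19938 genes. No filter was set on dim genes. Regions came from the titles of 6 arrays and were compared with limma 3.58.1 (lmFit, eBayes) in R 4.3.3, with moderated 95% intervals, and the steps were tested on simulated data. With 3 arrays a group, the smallest two-sided p of an exact permutation test is 0.1, and this number limits the precision. The labels name biological replicates without tying them to animals, so p-values reflect only how far these cultures vary. The members, gene lists and background gauge were chosen with earlier results of these data known. Named genes are all members and, per role, those passing and then the 2 with the largest difference; others are named where a call under another setting or a count turns on them, after their values were seen. A list is described by counts and medians, with no test of the list. Alternatives covered probe set choice, a cut of the dimmest 40% of genes, other normalizations, variance prior, array weights, a replicate block and each array left out.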

Additional observations from a re-analysis of the deposited data

How the results depend on the processing

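Over all 6 arrays none of the 9 members passed, and the count stayed at 0 in 13 of the 14 alternatives. It was 0 to 4 when single arrays were left out, with 4 without lateral ventricle array 2. In 4 of the 14 the difference of a member could not change, only its p. These were the mean of probe sets, as each member has 1, the cut of the dimmest genes, the variance prior and the replicate block. They do not test sign or size. In the alternatives that can change a difference, all 9 kept their sign except Rptor. It lay at -0.0634 and 0.0727 when lateral arrays 1 and 2 were left out in turn. Groups that do not overlap fix the sign of Tsc1, Rictor and Pik3r1. The lowest and highest differences over the alternatives were -0.69 and -0.34 for Tsc1, -0.46 and -0.30 for Rictor, -1.14 and -0.25 for Eif4ebp1 and 0.26 and 0.45 for Pik3r1. Of the 99 further pathway genes, 3 passed with array weights and 0 to 15 when single arrays were left out, 15 without lateral array 2 and 1 without lateral array 3. Of all genes, 46 passed over 6 arrays, 158 with array weights and 4 to 1644 when single arrays were left out, 1644 without lateral array 2 and at most 25 without any one of the other 5. With the replicate number as a replicate block, 57 genes passed, 0 of them members or other pathway genes. Deviations of same-numbered arrays from their group means correlated at 0.240, 0.111 and 0.0679, each array best with its own number, but 1 of the 3 pairs lay under 0.1 and nothing in the labels pairs them.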
